A study of Mus musculus with 2 samples.

Results

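The transcript models described here are the incomplete models of the mouse adrenal gland that lack the 5′ part of a known transcript. They are models of annotated genes that carry the class ISM (incomplete splice match) and the subtype Suffix, which means that their chain of introns equals the 3′ end of a longer chain. They were selected on measured values, namely their class and a count of at least 5 reads in their own library. Replicate 1 held 2421 such models in 1415 genes among 117665 models with reads, and replicate 2 held 858 in 565 genes among 62892. They took 54628 and 22685 reads. All had at least 2 exons, and 681 intron chains were members in both libraries.

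Adrenal gland RNA was taken at 36 days of age from female mice of the strain B6CASTF1/J, a hybrid between C57BL/6J and CAST/EiJ, and the labels name no treatment. Both libraries form 1 group and carry the labels' numbers as biological replicates 1 and 2, so the design holds no comparison between conditions and the libraries can only be set beside each other. Replicate 1 held 1223776 long reads and replicate 2 held 453761, of which 1144572 and 414588 fell on annotated genes. The labels give both libraries 1 donor but number the females differently in the sample notes, so the tests below measure these 2 libraries only and may reflect technical spread. The cortex markers and the medulla markers all had reads in both libraries, and 4 of 5 kidney markers had none in either (Umod, Slc12a1, Slc34a1 and Lrp2). Levels are given in CPM, the reads of a model for every 1000000 that fell on annotated genes. The muscle markers summed to 874 CPM in replicate 1 against 7.24 CPM in replicate 2, and the adipocyte markers to 5734 and 8203 CPM. A minimum of 5 reads equals 4.37 CPM in replicate 1 and 12.1 CPM in replicate 2, so a model had to be more abundant in replicate 2 to be a member.

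In long-read sequencing 1 read is meant to be 1 cDNA, so levels of different models can be compared without a correction for length. A read that lacks the 5′ exons can come from an RNA that starts at an inner promoter, from an RNA that was cut or decayed from its 5′ end, or from a cDNA whose synthesis stopped before the cap. An intron chain does not say which of these applies, and the files hold no measurement of caps, so these origins were not tested. The adrenal cortex makes corticosteroids from cholesterol in its mitochondria and endoplasmic reticulum, and the medulla makes catecholamines.

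The sequences in which leading members began are shown first, because they show which stretch of the reading frame was left at the inner start. Each is coding sequence of the parent transcript (mm10, sequences from GENCODE M21), begins at the first base of the model in both libraries and at the 5′ edge of an annotated internal exon, and marks in capitals the first in-frame ATG where the window holds one.
Akr1c18 exon 5 of 9, chr13:4142160-4142249, minus strand: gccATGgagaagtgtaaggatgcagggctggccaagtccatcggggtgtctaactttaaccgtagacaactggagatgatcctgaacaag
Akr1cl exon 6 of 10, chr1:65021416-65021505, minus strand: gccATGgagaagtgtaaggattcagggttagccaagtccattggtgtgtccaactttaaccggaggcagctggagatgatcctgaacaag
Cyp11a1 exon 6 of 9, chr9:58025078-58025167, plus strand: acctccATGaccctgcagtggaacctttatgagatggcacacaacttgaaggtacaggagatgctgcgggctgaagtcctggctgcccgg
Star exon 4 of 7, chr8:25810945-25811034, plus strand: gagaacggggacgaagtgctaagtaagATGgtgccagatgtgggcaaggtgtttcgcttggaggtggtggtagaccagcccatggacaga
Fabp4 exon 3 of 4, chr3:10205253-10205342, minus strand: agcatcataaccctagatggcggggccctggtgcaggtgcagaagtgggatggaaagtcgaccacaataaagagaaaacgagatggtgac
The windows of Akr1c18 and Akr1cl, 2 aldo-keto reductase genes on different chromosomes, were identical at 81 of 90 bases, and both models kept the last 5 exons of their parents. From the ATG in its window, the Akr1c18 model would leave 53.6% of the annotated protein and the Akr1cl model 53.7%. The same reckoning gave 37.6% for Cyp11a1 and 61.3% for Star. The Fabp4 window holds no in-frame ATG, and the first one after it leaves 9.85% of the protein. This reckoning takes the first base of the model as the start of the RNA. The marked ATG begins at base 4 of the Akr1c18 and Akr1cl windows and at base 7 of the Cyp11a1 window. An RNA that began further inside the exon would lack it. Whether any of these frames is translated was not measured.

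Where the models began was almost always a position that the annotation already holds. Of the 2421 members of replicate 1, 1351 (55.8%, 95% Wilson interval 53.8 to 57.8) began at the 5′ edge of an internal exon, 756 (31.2%) at the start of another annotated transcript of the gene, and 173 (7.15%) at another annotated exon end. In replicate 2 these were 501 (58.4%, interval 55.1 to 61.6), 255 (29.7%) and 55 (6.41%) of 858. The intervals of the internal edge and of the annotated start overlapped between the libraries. They take models as independent, although 681 chains were members in both, so the overlap does not measure the spread between libraries. The starts of 141 members (5.82%) in replicate 1 and 47 (5.48%) in replicate 2 lay on no annotated exon end. The files give a single start per model, with no account in the sources used here of how it was set. A start on an exon edge is therefore read here as naming the first exon kept, and not the base at which the reads began. The 3′ ends lay on the 3′ edge of an annotated exon of the gene, last or internal, in 2165 members (89.4%) and 773 (90.1%).

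**Figure D1:**
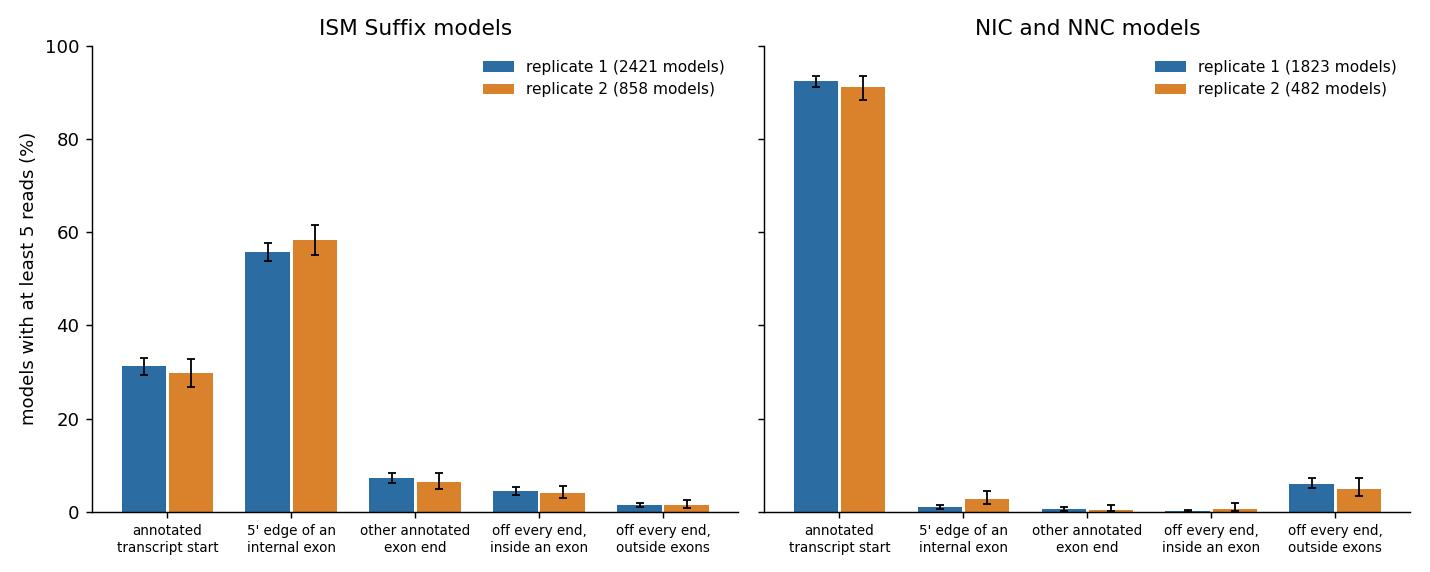
Share of models with at least 5 reads (y axis, percent) by the kind of position at which they begin (x axis), for ISM Suffix models (left) and for unannotated full-length models of the classes NIC and NNC (right). Bars are libraries and lines are 95% Wilson intervals. Suffix models began at internal exon edges in 55.8% and 58.4%, and NIC and NNC models in 0.933% and 2.70%.

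For comparison, the NIC and NNC models, which are unannotated combinations of known or new splice sites, began at an annotated transcript start in 1685 of 1823 (92.4%) and 440 of 482 (91.3%). The class itself requires a suffix model to lack 5′ introns, so this contrast follows in part from the rule and is given without a test. The members that began at an annotated start took 25.7% and 20.0% of all member reads, and those at an internal edge 64.7% and 71.0%. Few starts lay outside every annotated exon of the gene, at 33 members (1.36%) and 12 (1.40%).

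The members were missing a median of 3 introns in both libraries. They lacked only the first intron of their parent in 666 of 2332 members with an annotated parent (28.6%) and in 236 of 842 (28.0%), and 10 or more introns in 360 and 126. A further 89 and 16 members matched the 3′ end of an unannotated chain only. They kept a median of 65.3% and 60.4% of the parent's length. Their median length was 1575 bp in replicate 1 and 1119 bp in replicate 2, and 2-exon models made up 15.1% and 22.4%. Among chains that were members in both libraries, Col4a2, a chain of basement membrane collagen, had lost most introns, with 5 of 48 exons left at 7 and 6 reads. Fasn, the fatty acid synthase, followed with 4 of 43 exons at 20 and 18 reads and with 6 of 43 exons at 6 and 7 reads. The complement gene C4b kept 4 of 41 exons at 5 and 6 reads. C4b has the near-identical copy C4a, and reads of the pair may have been divided between them upstream.

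Most members had lost the start codon of their parent, but a small number of heavily read ones had not. Of 2313 members with a coding parent in replicate 1, 292 (12.6%) still held the annotated start codon and hence the whole coding sequence, and in replicate 2 109 of 835 (13.1%). They took 31.3% and 23.5% of the reads of such members. In the set that kept it, 95.5% and 94.5% lacked a single intron, against 18.7% and 17.8% of those that had lost it. The members without the start codon kept a median of 59.8% and 52.0% of the coding sequence. Without Hsd3b1, the share of reads with the start codon was 16.9% and 11.3%.

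Hsd3b1 led all members. It encodes the steroid dehydrogenase that turns pregnenolone into progesterone, a step in all steroid synthesis of the gland, and lies at chr3:98852194-98859794 on the minus strand. Its leading chain kept 4 of 5 exons and the start codon, began at position 98858341 in both libraries, the edge of exon 2, and took 8331 reads (7279 CPM) in replicate 1 and 2677 (6457 CPM) in replicate 2, a mean of 6868 ± 581 CPM (SD, n = 2). A second chain began at position 98858152, 1642 bp after the nearest annotated start, kept 3 exons of a 4-exon parent and the whole coding sequence, and took 939 and 405 reads, or 820 and 977 CPM. The 5-exon transcript with its first exon was read 108 and 11 times. Hsd3b1 alone thus held 17.1% and 13.7% of all member reads, and its suffix models were 93.9% and 97.3% of its suffix and full-length reads. Close relatives of Hsd3b1 in the same gene cluster may have shared reads with it upstream, so its level is uncertain in that respect.

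The next most read chains that kept the start codon belonged to genes of several kinds. Ndufa13, a subunit of respiratory complex I, had 555 and 311 reads on a chain of 4 of 5 exons that began at the edge of exon 2 (485 and 750 CPM), beside 12 and 4 full-length reads of the gene. Atp5j, a subunit of ATP synthase, had 451 and 253 reads on 4 of 5 exons, and Atp5f1, another subunit, 485 and 188 reads on 7 of 8. Dhcr7, which makes the last step of cholesterol synthesis, had 208 and 129 reads on 8 of 9 exons, where its own 9-exon parent was read once in each library. Psmc2, an ATPase of the proteasome, had 224 and 66 reads on 12 of 13 exons. Sdsl had 190 and 66 on 8 of 9, and the splicing factor gene Hnrnpf 191 and 46 on 4 of 5. The chains of Atp5j, Atp5f1, Dhcr7, Sdsl and Hnrnpf began at an annotated transcript start of their gene in both libraries. They thus lack the first exon of the parent, but not a known start of the gene. That of Psmc2 began at an internal exon edge. In 52 of the 3254 genes tested below, suffix reads were at least 50% of suffix and full-length reads in both libraries. These included Hsd3b1, Ndufa13, Atp5j, Hao2, Atp5f1, Fasn and Dhcr7. That share counts suffix chains that begin at an annotated start together with all others.

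The other leading chains had lost the start codon. Akr1c18, which inactivates progesterone and marks the X zone of the young cortex, kept 5 of 9 exons in a chain of 1175 and 1389 reads, 1027 CPM and 3350 CPM. Akr1cl, a related reductase, had 397 and 540 reads on 5 of 10 exons and 222 and 330 on 2 of 10. Each of these chains had a higher CPM in replicate 2. Ndufa4, a subunit of the respiratory chain, had 333 and 838 reads on 2 of 4 exons, and Atp5b, the catalytic subunit of ATP synthase, 481 and 727 on 2 of 10. The start of the Atp5b chain lay at an internal edge in replicate 1 and at an annotated start 84 bp away in replicate 2. Fabp4, the fatty acid carrier of adipocytes, had 182 reads (159 CPM) and 785 reads (1893 CPM) on 2 of 4 exons, the widest ratio of the chains named here, at 11.9. Cyp11a1, which cleaves the side chain of cholesterol, had the lower CPM in replicate 2 on its 4-exon chain, with 815 reads (712 CPM) and 215 reads (519 CPM). Aldo-keto reductases have near-identical copies, so their counts carry the same uncertainty as Hsd3b1.

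**Figure D2:**
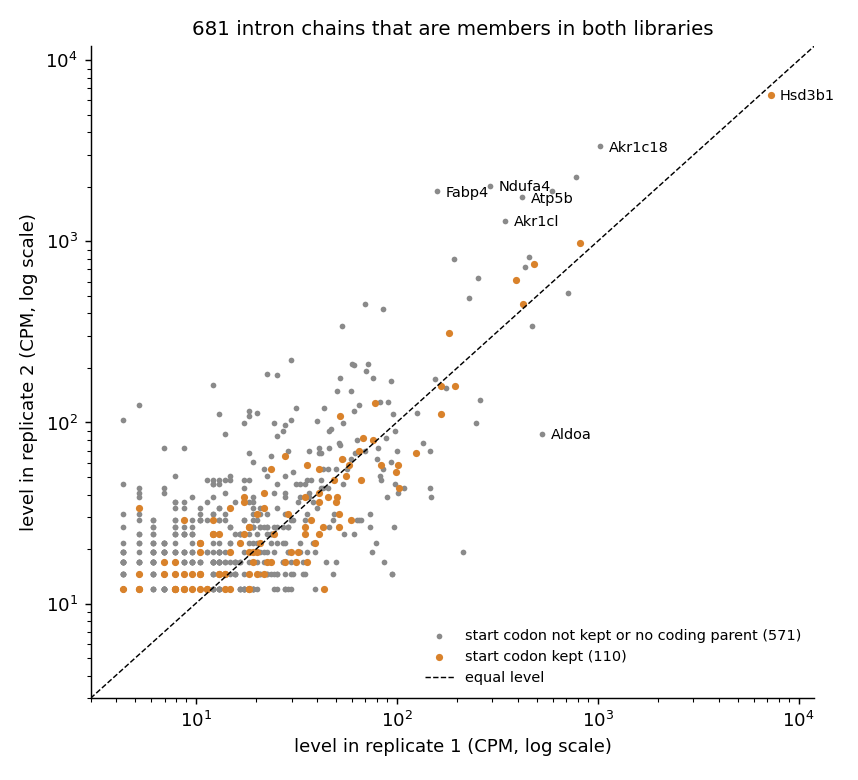
Level of each of the 681 intron chains that are members in both libraries, replicate 1 on the x axis and replicate 2 on the y axis, in CPM on log scales. Orange points keep the start codon of their parent (110), grey points do not or have no coding parent. Hsd3b1 stands at the top near the line of equal level, Fabp4 (159 and 1893 CPM) lies above it and Aldoa (527 and 86.8 CPM) below. The lower edge of the cloud is the minimum of 5 reads, which equals 12.1 CPM in replicate 2.

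The 681 shared chains held 69.7% of the member reads of replicate 1 and 93.8% of those of replicate 2. Their median ratio of replicate 2 to replicate 1 was 0.62 on the log2 scale. The minimum of 5 reads equals a higher CPM in replicate 2 and fixes part of that ratio, so it is a description only. Log2 CPM of these chains had a Pearson r of 0.730 and a Spearman rho of 0.571 across the chains, which share libraries and genes and are not independent replicates. The 10 genes with most member reads took 31.5% of the member reads in replicate 1 and 49.8% in replicate 2.

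Most members had a counterpart in the other library, and more so in the deeper one. Of the members of replicate 1, 1830 of 2421 (75.6%, interval 73.8 to 77.3) had at least 1 read as a suffix chain of the same gene in replicate 2, and of the members of replicate 2, 821 of 858 (95.7%, interval 94.1 to 96.9) in replicate 1. When replicate 1 was thinned to the number of annotated-gene reads of replicate 2, the shares were 90.9% and 87.8%. NIC and NNC models were found again at 77.6% and 95.0%, and their intervals overlapped those of the suffix models in both directions. The members of replicate 1 that were not found had a median of 6 reads, and 7 reads in replicate 2.

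A part of the missing chains was present but filed elsewhere. Of 591 chains of replicate 1 that were not found, 36 stood in replicate 2 in another class or under another gene, and of 37 chains of replicate 2, 19 did so in replicate 1. The chain of Rpl13a with 104 reads in replicate 1 was listed with 21 reads under Gm45713 in replicate 2, a locus whose span on chromosome 7 overlaps Rpl13a and Flt3l. In the other direction, the chain of Cyp21a1, which hydroxylates progesterone, with 108 reads in replicate 2 had 217 reads in replicate 1, where it carried the ISM subtype Both, the mark of a chain that equals a 5′ and a 3′ part of annotated chains. The class and the gene of a chain thus depended on the library in these cases. The 22-exon chain of Acsl5 with 69 reads and the 21-exon chain of Aars with 62 reads were classed NIC in replicate 2.

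Starts of the shared chains mostly repeated to the base where they lay on an annotated exon end. Among 681 shared chains, 540 (79.3%) began at the same base and 590 (86.6%, interval 83.9 to 89.0) within 50 bp. All but 6 of the 344 chains that began at an internal edge in both libraries had the same base (338, 98.3%). Of 203 that began at an annotated transcript start in both, 170 (83.7%) did. Where both starts lay off every annotated exon end, 7 of 18 chains (38.9%) had the same base and 8 (44.4%, interval 24.6 to 66.3) lay within 50 bp. Where either start lay off, 35 of 67 (52.2%) lay within 50 bp. The high repeat of starts thus came from positions that the annotation already holds. NIC and NNC chains, of which 420 were shared, had the same base in 68.6% and lay within 50 bp in 91.4%.

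**Figure D3:**
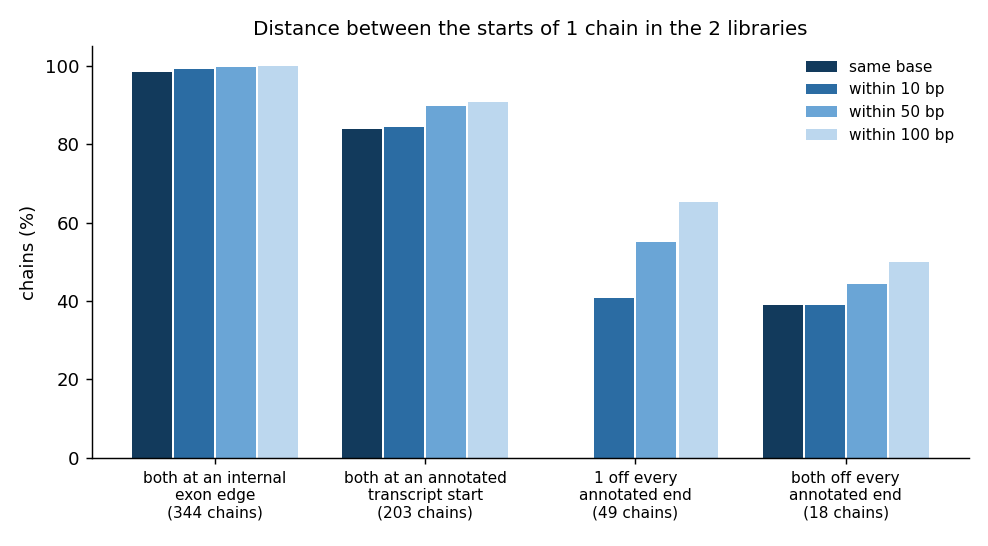
Share of shared chains (y axis, percent) whose starts in the libraries coincide or lie within 10, 50 or 100 bp, by the kind of position of both starts (x axis). Chains with 2 different kinds of annotated end are not drawn. Starts at internal exon edges coincided in 98.3% of 344 chains, and starts off every annotated end in 38.9% of 18.

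Starts off every annotated end were often close to one, as 51 of 141 in replicate 1 and 17 of 47 in replicate 2 lay within 10 bp of such an end. In 18 shared chains both starts lay off. The most read was a 6-exon chain of Cyp11a1 with 524 and 340 reads, which began at positions 58018197 and 58018570 of chromosome 9, inside an annotated exon and 373 bp apart, the first of them 3 bp from an annotated exon edge. The 7 with the same base in both were chains of Gm20427, Adh1, Akr1d1, Gm45713, Psmb5, Sparc and Rab5if, of which Sparc lay 2 bp and Rab5if 10 bp from an annotated end. In 4 of these the start lay in no annotated exon of its own gene and more than 50 bp from every annotated start of that gene. Exons of other genes were not checked. Adh1, an alcohol dehydrogenase, began at chr3:138279239, 1588 bp after the nearest annotated start and 492 bp outside its exons, kept 8 of 9 exons and 98.4% of the coding sequence, and had 74 and 52 reads (64.7 and 125 CPM). Akr1d1, a steroid reductase, began at chr6:37532397, 2224 bp after its nearest annotated start and 85 bp outside its exons, kept 8 of 9 exons, and had 91 and 26 reads (79.5 and 62.7 CPM). Both starts thus lay downstream of an annotated start and in no annotated exon of the gene.

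The 2 others belong to loci that overlap neighbouring genes on the same strand. The chain of Gm20427 had 69 and 87 reads on 2 of 11 exons, and the locus overlaps Slc39a7 and H2-Ke6 on chromosome 17. Its start, at position 34026758, lies within the span of H2-Ke6 (34026033 to 34028060). The chain of Gm45713 had 33 and 13 reads on 7 of 13 exons, in a locus that overlaps Rpl13a. In replicate 1 this chain ran from position 45127823 to 45125558, wholly within the span of Rpl13a (45125558 to 45128761). Models of these loci may hold reads of the overlapping genes, and the assignment of such chains differed between the libraries as given above. The bases at starts that lay off every end but in an exon were counted too. There were 108 and 35 such members, and the counts cover 96 and 32 starts. A pyrimidine followed by a purine, the pair common at capped starts, stood there in 5 of 96 starts (5.21%, interval 2.25 to 11.6) and 3 of 32 (9.38%, interval 3.24 to 24.2), against 21.2% and 20.1% of all positions of the same exons. The letters GGG stood just before the start in 6 of 96 (6.25%, interval 2.90 to 13.0) and 0 of 32, against 2.13% and 2.63% of positions. These are few starts, and some were shared by both libraries. Of the 108 and 35 members, 47 and 15 began within 10 bp of an annotated exon end, so all positions of the exons are an unlike background. Whether these starts were capped was not tested.

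The number of exons kept does not depend on where in an exon a start was placed. It was read in 57 genes with at least 50 suffix reads on 1 annotated transcript of at least 5 exons in each library. In 33 of them (57.9%) the same number of exons led in both libraries. In 30 the leading number of each library held at least 50% of its suffix reads. Among these 30, the leading number differed in Rps25, with 2 exons (81.25%) in replicate 1 and 3 exons (92.3%) in replicate 2. In Akr1c18, whose annotated transcript allows 7 suffix chains, the chain with 5 exons held 89.5% and 95.3% of 1313 and 1457 suffix reads. Hao2, a peroxisomal oxidase, had 80.4% and 79.3% of its suffix reads on 5 of 9 exons. Star, which brings cholesterol into mitochondria, had 60.7% and 68.7% on 4 of 7 exons and 24.6% and 14.7% on 6. Chgb, a granin of chromaffin cells, had 92.1% and 97.8% on the last 2 of 5 exons, and Pink1 93.7% and 88.9% on 5 of 8.

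Other genes spread over many exons or changed their leading chain. Fasn, with 43 exons, had 23.3% of 210 suffix reads on its leading 10-exon chain in replicate 1, and in replicate 2 its leading chain of 21 exons held 10.2% of 197. Reads lay on 29 and 30 of its 41 possible chains. In Cyp11a1 the 4-exon chain led in replicate 1 with 50.6% and the 6-exon chain in replicate 2 with 45.7%. Aldoa, a glycolytic enzyme, kept 7 exons in 603 of 750 suffix reads (80.4%) in replicate 1 and in 36 of 114 in replicate 2, where the 2-exon chain had 38. The 7-exon chain of Aldoa begins at an annotated transcript start and stood at 527 and 86.8 CPM. The muscle markers (5 and 3 of 5 with reads) differed in the same direction, at 874 and 7.24 CPM, and their part in this difference was not tested. In bulk tissue, fewer cells of a type and less RNA per cell cannot be told apart.

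**Figure D4:**
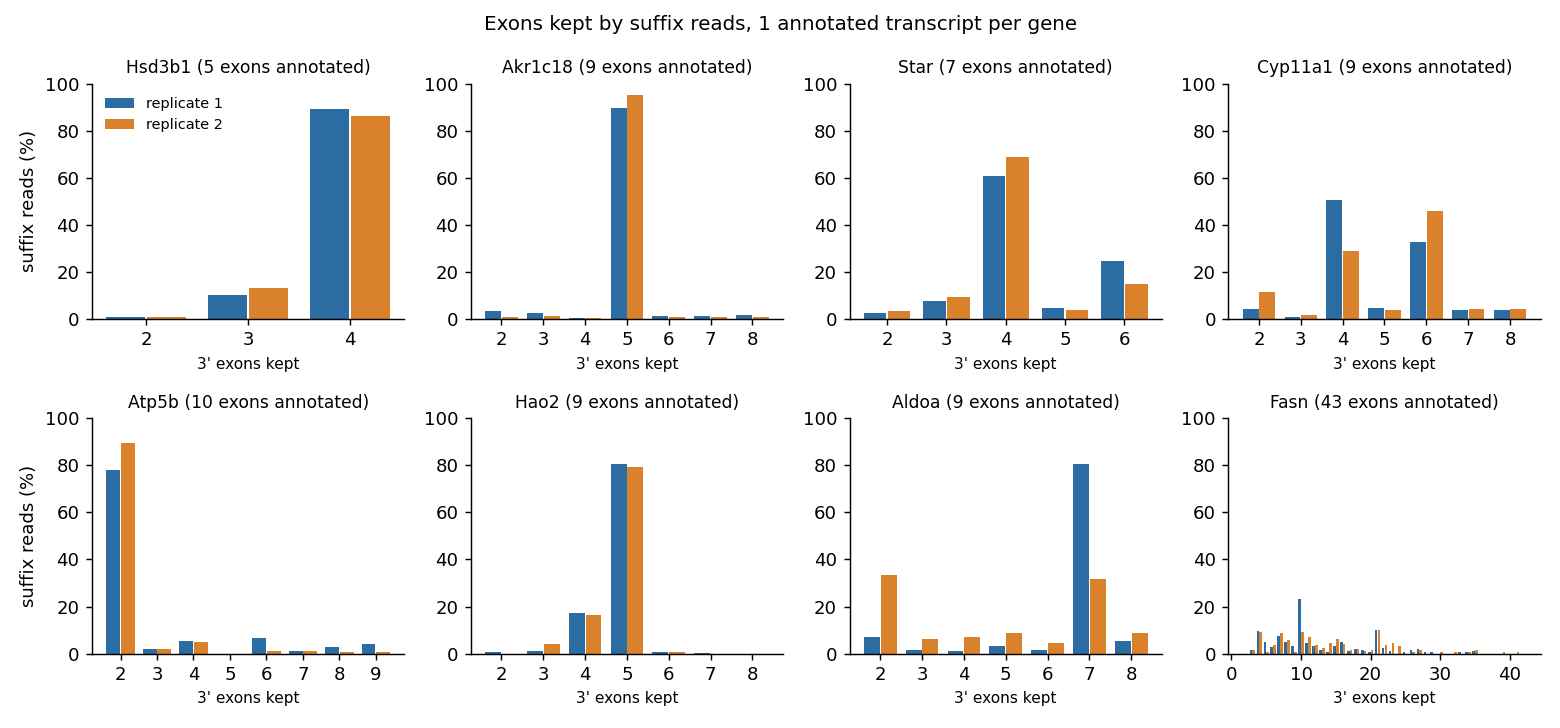
Share of suffix reads (y axis, percent) by the number of 3′ exons kept (x axis) for 8 genes, with replicate 1 in blue and replicate 2 in orange. Akr1c18, Hao2, Atp5b and Hsd3b1 have the same single leading step in both libraries, Cyp11a1 and Aldoa change it, and Fasn spreads over many steps.

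Whether the weight of incomplete reads differed between the libraries was tested gene by gene, over all suffix reads and all full-length reads (Known, NIC and NNC) of each gene. Suffix models of any read number were 7.35% (interval 7.31 to 7.40) of annotated-gene reads in replicate 1 and 37329 of 414588 (interval 8.92% to 9.09%) in replicate 2, and the members alone 4.77% and 5.47%, a mean of 5.12% ± 0.494 (SD, n = 2). The share of the members depends on depth through their minimum of 5 reads. With replicate 1 thinned to the annotated-gene reads of replicate 2, it was 3.89% and 5.47%. Over 3254 genes with at least 20 suffix and full-length reads in each library, the median suffix share was 3.22% and 3.92%. A two-sided Fisher's exact test with Benjamini-Hochberg adjustment called the share higher in replicate 2 in 117 genes, 3.6% of those tested, and lower in 30, 0.922%. Of the called genes, 98 of 117 and 30 of 30 carried a member, which the minimum of 5 reads favours, so nothing is read from that overlap. Counting only suffix models with at least 5 reads moved the split to 114 higher and 86 lower, where the same minimum equals a higher CPM in replicate 2. These tests compare 2 libraries, not conditions.

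The median share differed with transcript length in both libraries, without a test. Genes whose most read annotated transcript was under 1000 bp had a median suffix share of 0.794% and 0.900%, and those over 3000 bp 6.80% and 6.45%. With the reads of all genes of a length pooled, the share was 3.64% and 6.45% under 1000 bp. It was 8.43% and 12.5% from 1000 to 2000 bp, and 9.20% and 10.6% over 3000 bp. The pooled share of replicate 2 was thus not highest in the longest genes. The genes called higher had a median length of 1945 bp, those called lower 2517 bp and all genes tested 1948 bp.

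**Figure D5:**
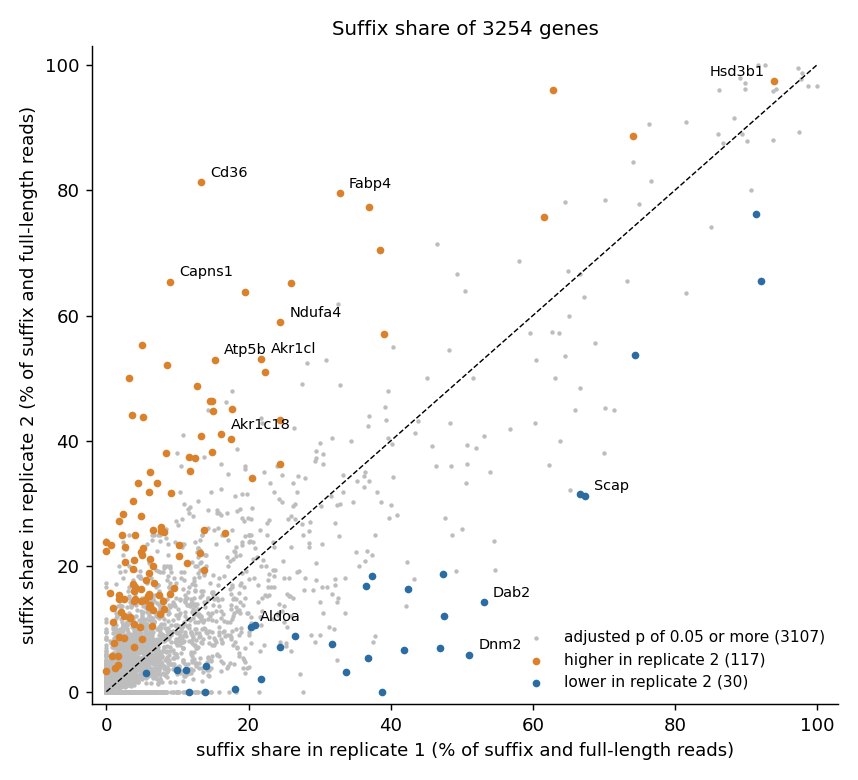
Suffix share of 3254 genes in replicate 1 (x axis) and replicate 2 (y axis), as a percent of suffix and full-length reads. Orange points (117) were higher and blue points (30) lower in replicate 2 at an adjusted p under 0.05, and the dashed line marks equal shares. Akr1c18, Akr1cl, Fabp4, Atp5b and Ndufa4 lie above the line, and Dnm2, Dab2, Scap and Aldoa below.

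Cd36, a fatty acid transporter, showed the widest rise, with 29 suffix and 189 full-length reads (13.3%) in replicate 1 and 52 and 12 (81.2%) in replicate 2 (Fisher's exact test, adjusted p = 6.71e-22). Fabp4 rose from 32.8% to 79.6% (adjusted p = 2.68e-102, exact test), and Capns1, a calpain subunit, from 8.97% to 65.4% (adjusted p = 5.98e-09). Mrps22, of the mitochondrial ribosome, rose from 3 suffix and 57 full-length reads to 21 and 17, and the phosphatase Ptpn2 from 1 and 30 to 10 and 10. Cd36 and Fabp4 are also adipocyte genes, and all 5 adipocyte markers had reads in both libraries, at 5734 and 8203 CPM in sum. Their part in these shares was not tested. In the other direction, Dnm2, a dynamin of endocytosis, went from 24 of 47 reads (51.1%) to 2 of 34 (5.88%, adjusted p = 0.000462, exact test). Pitrm1, Dab2 and Scap fell by 40.0, 38.8 and 36.1 percentage points. The call for Pitrm1 was lost when only suffix models with at least 5 reads were counted (-15 points, adjusted p = 0.54, exact test). That for Scap was lost with Known models alone as full-length (-33.9 points, adjusted p = 0.059, exact test). Kxd1 was called lower, from 38.7% to 0 of 22 reads, a call that was lost under the alternative described next.

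Giving each identical chain 1 class and 1 gene in both libraries, an alternative added after the data were seen, ended 8 of the 147 calls. Those lost were Cyp21a1, Clstn3, Ptov1 and Uck1 among the higher and Rpl13a, Kxd1, Aars and Mgst1 among the lower. Cyp21a1 had stood at 3.94% and 7.09% (adjusted p = 1.41e-14, exact test) and then stood at 7.27% and 7.38%. The number of genes called was 114 higher and 29 lower under that reckoning, of which 139 were among the 147 with the same direction.

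Genes of steroid synthesis held 11700 and 11925 CPM in members. Of 13 genes on that list, 11 carried a member and 11 were tested. The suffix share of 6 of these 11 was higher in replicate 2 and of 0 lower, where 3.6% and 0.922% of all genes tested were called, and 8 had an unadjusted p under 0.05. The list median was 7.93% and 14.5%, against 3.22% and 3.92% over all genes tested. The 6 were Hsd3b1, Cyp11a1, Star, Cyp21a1, whose call was lost as above, and the electron carriers of steroid synthesis, Fdx1 (0.787% to 5.76%) and Fdxr (11.3% to 20.5%). Cyp11a1 rose from 13.7% to 19.3% and Star from 7.93% to 14.5%. This share leaves out reads of the other classes, and the direction depended on that for some genes. Over all reads of the gene, members were 6.85% and 4.34% for Cyp11a1 and 85.3% and 70.3% for Hsd3b1, lower in replicate 2. They were 6.78% and 11.9% for Star and 3.17% and 5.86% for Cyp21a1, higher in replicate 2. By suffix share, Cyp11b1, which makes corticosterone, stood at 5.47% and 6.49% and did not pass (adjusted p = 0.364, exact test). Nr5a1, the master regulator of the cortex, stood at 43.4% and 41.3%. Among X-zone and steroid metabolism genes, 2 of 7 tested rose, Akr1c18 from 16.2% to 41.1% (adjusted p = 8.79e-173, exact test) and Akr1cl from 21.8% to 53.1%, and none fell, against the same 3.6% and 0.922% of all genes. The median of that list was 6.32% and 15.6%, and 3 of its genes had an unadjusted p under 0.05. Akr1b7, a reductase of the cortex, stood at 3.83% and 4.33%. More reads let a smaller shift pass the test. Hsd3b1 was called on a shift of 3.39 points, with 3112 suffix and 85 full-length reads in replicate 2. The median gene tested had 44 such reads there. The counts called on these and the following lists were not matched for depth, so they are not read as a trait of a list.

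Genes of cholesterol handling held members as well. None of 12 tested genes of cholesterol synthesis passed in either direction by Fisher's exact test, and none had an unadjusted p under 0.05. The list median was 7.30% and 7.13%. Dhcr7 stood at 90.1% and 87.8%, and Fdps, which makes farnesyl diphosphate, at 10.6% and 10.4%. Hmgcs1, an early enzyme of the pathway, had 58 suffix and 762 full-length reads in replicate 1 and 13 and 95 in replicate 2, a higher share in replicate 2 that did not pass, with members in replicate 1 only. Of 6 tested genes of cholesterol uptake and storage, Scarb1, the receptor of high-density lipoprotein, rose from 10.2% to 21.7%, and none fell, beside 3.6% and 0.922% of all genes. The list median went the other way, at 8.67% and 3.17%, and 2 of the 6 had an unadjusted p under 0.05. Soat1, which makes cholesterol esters, stood at 16.1% and 4.95% and did not pass (unadjusted p = 0.0042, adjusted p = 0.079, exact test). Lipe, a lipase of stored esters, stood at 33.6% and 18.2%, and Stard3, a sterol carrier of late endosomes, had 4 of 56 and 0 of 20 reads. The summed level of member reads was 411 and 429 CPM for cholesterol synthesis and 193 and 118 CPM for uptake and storage.

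Members were also spread over genes of the respiratory chain and of ribosomes. Of these lists, 16 of 27 and 21 of 25 genes held a member, where 1082 of the 3254 genes tested did. The lists are counted whole, with 27 and 24 of their genes tested. The minimum of 5 reads favours genes with many reads, so nothing is read from these counts. Of 27 tested genes of oxidative phosphorylation, 4 rose and none fell, against 3.6% and 0.922% of all genes, with a list median of 2.24% and 4.38%, and 9 had an unadjusted p under 0.05. Atp5b rose from 15.3% to 52.9% (adjusted p = 1.08e-165, exact test) and Ndufa4 from 24.5% to 59.0%, while Atp5a1 and Atp5c1, further subunits of ATP synthase, reached 8.43% and 16.6% from 5.01% and 9.56%. Of 24 tested genes of the cytosolic ribosome, Rpl8, Rpl23 and Rps3 rose, and Rpl32 and Rpl13a fell, again against 3.6% and 0.922% of all genes. The median of that list was 4.67% and 5.27%, and 11 had an unadjusted p under 0.05. The call for Rpl13a was lost when its chain was counted under 1 gene. Rpl23 stood at 4.89% and 22.2%, and Rplp0, which did not pass, at 5.99% and 7.18%. Rpl32 had 111 suffix and 684 full-length reads in replicate 1 and 11 and 258 in replicate 2.

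Genes that mark other cells of the gland held members as well, and their counts stand beside the same 3.6% higher and 0.922% lower of all genes tested. Of 11 tested genes of the medulla, the granins Chgb (7.71% to 25.7%) and Chga (8.08% to 13.1%) rose, and Dbh, which makes noradrenaline, fell from 66.7% to 31.6%, with a list median of 6.96% and 8.97% and an unadjusted p under 0.05 in 4. Npy, the neuropeptide, stood at 12.4% and 20.0% with 89 and 53 member reads and did not pass. Of 10 tested adipocyte genes, Fabp4 and Ucp1 rose and the lipase Lpl fell, from 20.9% to 10.7%, while Cfd and Car3, at 6.22% and 3.70% in replicate 1 and 8.20% and 2.57% in replicate 2, did not pass. The adipocyte median was 5.70% and 8.37%, and 4 had an unadjusted p under 0.05. Sparc, a matrix protein, rose from 16.7% to 25.4% as 1 of 5 tested genes of capsule and stroma and passed alone, also at an unadjusted p under 0.05, with a list median of 16.6% and 25%. Gsn, an actin-severing protein, stood at 6.13% and 6.52% on 115 and 27 suffix reads, and Nr2f2, a nuclear receptor, had 25 and 7 member reads. None of 4 endothelial and 3 macrophage genes passed, and none had an unadjusted p under 0.05 by the exact test. The endothelial median was 3.99% and 3.27% and the macrophage median 6.07% and 2.94%. Their suffix reads were few, with Eng at 27 and 7, Plvap at 4 and 5, C1qa at 10 and 2 and Cd74 at 13 and 2, while Esam, a member in replicate 1 with 6 reads, was not tested. Skeletal muscle genes were members in replicate 1 only, with Acta1 at 30 member reads, Tnni2 at 9 and Atp2a1 at 5, and no gene of that list had reads enough for the test. No kidney gene held a member. Of 16 long cytoskeleton and scaffold genes 1 was tested, Tln1, at 81.5% and 90.9%, where the exact test gave no call and an unadjusted p of 0.354. Sptan1, a spectrin, was a member in replicate 1 only, at the minimum of 5 reads.

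Some members began where RefSeq places a gene start. The start lay within 50 bp of a RefSeq start in 112 members of replicate 1 and 41 of replicate 2, all but 2 in each library being annotated transcript starts too. For 5 and 3 of these members the RefSeq start carried another gene symbol. Their 111 distinct promoters (RefSeq, GRCm38.p6, 250 bases before to 50 after the start, both strands) held the GC box GGGCGG in 76 (68.5%, interval 59.3 to 76.4), against 35.7% of 32851 promoters of the same length. The letters CCAAT stood in 38 (34.2%), against 37.4% of all, and TATAAA in 9 (8.11%), against 13.6%. These are matches of letters and not sites. The 32851 promoters were not limited to genes with reads, whereas a member needs at least 5. Whether these shares differ from those of other genes read in the gland was not tested. For 2 such members the 100 bases before the RefSeq start follow, with CCAAT and GGGCGG or their complements in capitals. They were chosen because they hold a searched motif and overlap no annotated exon on the same strand. Exons on the other strand were not checked.
Hnrnpf, chr6:117906682-117906781, plus strand: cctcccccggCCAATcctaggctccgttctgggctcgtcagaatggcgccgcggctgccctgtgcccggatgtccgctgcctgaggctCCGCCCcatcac
Atp5g3, chr2:73911327-73911426, minus strand: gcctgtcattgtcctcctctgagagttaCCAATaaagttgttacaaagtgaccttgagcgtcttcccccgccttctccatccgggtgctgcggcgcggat
The Hnrnpf model began 45 bp from the RefSeq start with 191 and 46 reads, and the Atp5g3 model, of another subunit of ATP synthase, 44 bp from it with 68 and 12 reads. Each lacked 1 intron of its parent.

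At the minimum itself, 507 models of replicate 1 and 200 of replicate 2 had exactly 5 reads, and 826 and 318 suffix models had 4 reads and were left out. A 2-exon model of 1110018N20Rik stood just inside with 5 reads (4.37 CPM), and a 2-exon model of 2210016F16Rik just outside with 4 reads in each library, 3.49 and 9.65 CPM. Members were 10.7% and 7.39% of all suffix models but held 64.9% and 60.8% of their reads. Most genes had a single member, 984 of 1415 and 432 of 565, and the highest number was 22 in Acly, of lipid synthesis, in replicate 1 and 15 in Fasn in replicate 2.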

How the data were processed

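Long-read RNA-seq of both libraries was used. The authors deposited, for each library, counts of whole reads per transcript model without normalization, together with model classes and exon positions. Per the file headers and notes, the build was mm10, the annotation GENCODE M21 and TALON the source of the models. The aligner, its filters and the placement of model starts were not stated in the sources used here. All 141862 annotated transcripts had identical exons in both libraries and in the reference. CPM was computed here over reads of annotated genes. Because identifiers are numbered per library, chains were matched by gene and introns. Shares have 95% Wilson intervals, which cover counting error only, take models or reads as independent and do not measure the spread between libraries. Suffix reads against full-length reads were tested per gene with SciPy 1.17.1 (two-sided Fisher's exact test, at least 20 reads in each library, Benjamini-Hochberg). The code was run on simulated counts that held counting error only. That run cannot show how the test behaves under further spread between libraries. The members, the 14 gene lists and the tests were chosen with earlier results of these data known. Genes were named by rule: leading genes and chains, starts outside exons, the 5 widest calls in each direction, the 3 leading genes of each list, and chains missing most introns. Other genes were chosen after their values were seen, and some that the rule names are not reported here.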

Additional observations from a re-analysis of the deposited data

How the results depend on the processing

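No paired analysis was possible because both libraries belong to 1 group. A minimum of 10 reads gave a member share of annotated-gene reads of 4.33%, starts within 50 bp of an annotated start in 31.8% and starts outside exons in 1.69%, as means of the libraries, against 5.12%, 30.7% and 1.38%. A minimum of 2 reads gave 6.59%, 26.2% and 1.30%, and 64.0% of members were found in the other library, against 85.6%. That share was 53.8% where 5 reads were needed there. Leaving out Hsd3b1, weighting by reads, the subset off every boundary and 1 class per chain were chosen after seeing the data. Leaving out Hsd3b1 gave a member share of 4.38%, and leaving out Cyp11a1 gave 1.27% of starts outside exons. Starts over 20 bp outside every exon were 1.18%. Weighting models by reads put 22.9% of starts near an annotated start. Shared chains began within 10 bp in 83.1%, and within 50 bp in 52.2% of those with a start off every boundary, against 86.6%. Without either replicate, the member share ranged from 4.77% to 5.47%, the share found again from 75.6% to 95.7%, starts near an annotated start from 30.2% to 31.3% and starts outside exons from 1.36% to 1.40%. The number of genes called, 147, lay between 126 and 200 under the 6 alternatives run, and lower calls were 86 in place of 30 with suffix models of at least 5 reads. Pitrm1, Scap and Kxd1 each lost the call under 1 alternative. The depth of replicate 2 limits what can be found there: a count of 0 allows up to 7.24 CPM, taken as 3 reads, against 2.62 CPM in replicate 1.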
